A study of Mus musculus with 9 samples.

Results

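The genes described here are the 3 enzymes that build the ganglioside GD2 (St3gal5, St8sia1 and B4galnt1) and 5 further surface antigens that are targeted in neuroblastoma (Cd276, Gpc2, L1cam, Dlk1 and Ncam1). They were taken by symbol from a table of 54429 genes, and all 8 of 8 were found. The counts came from RNA-seq of 9 whole tumors grown from NB9464, a mouse neuroblastoma line with amplified MYCN, implanted under the skin of wild-type C57BL/6 mice. Treatment began at a tumor volume of 250 mm3, and 3 tumors were taken per arm: vehicle alone, the pair R788 + anti-PDL1, and the same pair with radiation, which is labelled Rad + R788 + anti-PDL1 and called irradiated here. R788 (fostamatinib) is a prodrug that inhibits the kinase Syk and was dosed at 50 mg/kg. The anti-PDL1 antibody binds the checkpoint ligand encoded by Cd274, and the radiation dose was 10 Gy. The sources gave 4 treatment doses from day 28 to day 37 in one place and a weekly schedule in another, and no arm with a single agent was analysed here. All tumors came from a single implanted cell line, so differences between tumors of distinct origin could not be seen. The labels give whole tumor as the tissue, but their RNA extraction text names BMDMs (bone marrow-derived macrophages).

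Gangliosides are sialic acid-bearing glycolipids of the outer cell membrane. GM3 synthase (St3gal5) adds a sialic acid to lactosylceramide, GD3 synthase (St8sia1) adds a further one to GM3, and the N-acetylgalactosaminyltransferase encoded by B4galnt1 turns GD3 into GD2 and, in the branch without St8sia1, GM3 into GM2. GD2 is dense on human neuroblastoma cells and is the target of antibodies used in patients. Among the protein antigens, Cd276 encodes the B7 family molecule B7-H3, and Gpc2 encodes glypican-2, a heparan sulfate proteoglycan of developing neurons. L1cam and Ncam1 encode neural cell adhesion molecules, and Dlk1 encodes a Notch-related membrane protein of progenitor and chromaffin-type cells. Only RNA was measured, so neither GD2 itself nor any surface protein was quantified.

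Total counts ranged from 18276683 to 23397886 per tumor. Irradiated replicate 1 stood apart from the others: across genes, Pearson r of its log2 CPM with the other tumors was 0.865 to 0.907, and among those 8 tumors r was at least 0.937. Its normalization factor was 0.743 against 0.975 to 1.12, and its mitochondrial share was 1.97% against 3.48% to 5.71%. The members' differences that involve that group are therefore given with and without it. CPM is the count scaled to library size after TMM normalization, which balances composition between libraries. Where a gene had 0 counts, a level of as much as 3 counts (0.115 to 0.221 CPM, depending on the library) remains possible, by counting error only.

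The noradrenergic identity that marks most neuroblastomas was only partly visible. In a list of 14 noradrenergic neuroblast genes, Th, the rate-limiting enzyme of catecholamine synthesis, was at 0 in all 9 tumors, and Phox2a, Dbh and Chga did not exceed 3 counts in any. Hand2, a transcription factor of sympathetic precursors that fibroblast lineages can also express, ranged from 325 to 867 CPM and made up most of the list's summed level. Without Hand2 the sum was 19.8 to 37.1 CPM in vehicle, 15.2 to 18.7 CPM in R788 + anti-PDL1 and 18.1 to 25.7 CPM in irradiated tumors. Isl1, a transcription factor of sympathetic and sensory neurons, was at 0 in the 3 vehicle tumors and had 80, 48 and 63 counts in the R788 + anti-PDL1 tumors. Irradiated tumors had 14, 27 and 21 counts, also above vehicle. Isl1 was the only gene of this list with an adjusted p under 0.05 in R788 + anti-PDL1 against vehicle (edgeR quasi-likelihood test, adjusted p = 0.0344). It was also called in 9 of 14 alternatives, with an adjusted p of up to 0.216 in the others. With 0 counts in vehicle, Isl1 passed the filter on low counts only through treated tumors, where it was high, so its p-values are given as descriptions. Ddc, which decarboxylates precursors of catecholamines, and Gata3, another sympathetic transcription factor, had lower values in the same comparison at an unadjusted p under 0.05. Ddc had 19.7, 14.3 and 15.8 CPM in vehicle against 7.72, 3.44 and 5.16 CPM in R788 + anti-PDL1, without overlap (log2 fold change -1.61 ± 0.44, adjusted p = 0.155). Gata3 had 11.4, 0.180 and 3.01 CPM against 0.661, 0.306 and 0.328 CPM (-3.48 ± 1.08, adjusted p = 0.227), with overlap. In irradiated tumors Gata3 had 5.9, 6.04 and 6.8 CPM, above every R788 + anti-PDL1 tumor, and Ddc had 13.6, 7.81 and 4.52 CPM.

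Levels of the 8 genes fell into a high and a low class when divided by transcript length (CPM per kb of merged exons). In vehicle tumors Cd276 was highest at 30.2 ± 3.19 (SD, n = 3), above 84.2% of 15815 tested genes with a known length. St3gal5 at 14.4 ± 4.14 and B4galnt1 at 14.0 ± 1.54 followed, and these neighbours overlapped. Ncam1 was next at 4.35 ± 0.30 CPM per kb, below every B4galnt1 value. The low class began with Gpc2 at 0.326 ± 0.312 CPM per kb, followed by Dlk1 at 0.161 ± 0.0760 and L1cam at 0.0704 ± 0.0749, and each of these overlapped the next. St8sia1 was lowest at 0.00781 ± 0.00953 CPM per kb, under the lowest L1cam value, and only 0.2% of the genes with a length lay below it.

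**Figure D1:**
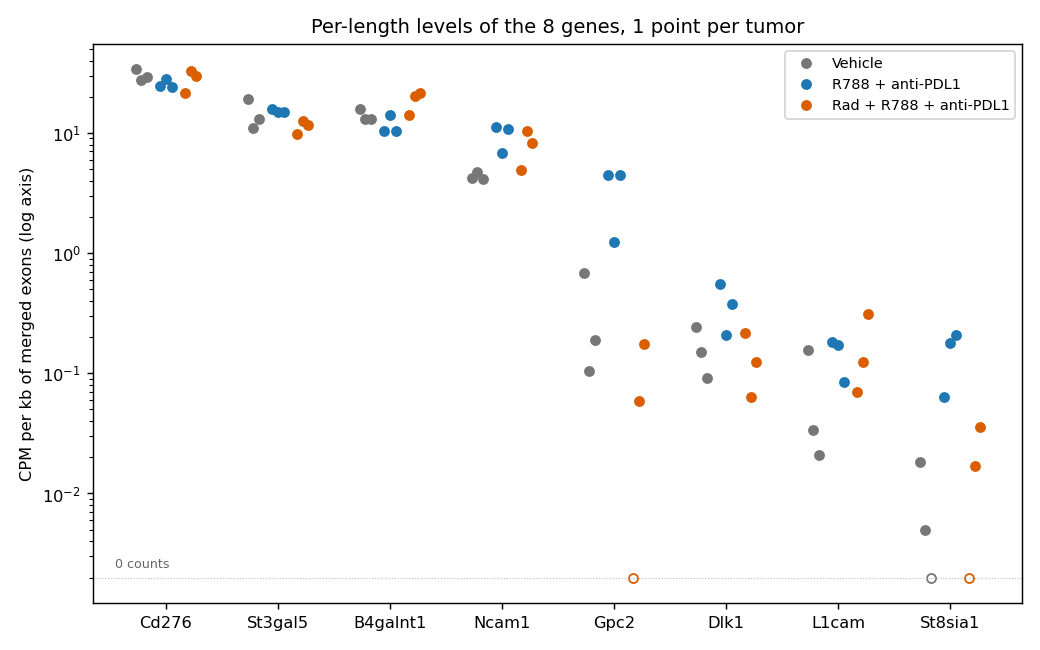
Level of each gene in CPM per kb of merged exons (log axis), 1 point per tumor, coloured by group, with open circles for tumors at 0 counts. Cd276, St3gal5, B4galnt1 and Ncam1 lay above 4 CPM per kb in all 9 tumors, whereas Dlk1, L1cam and St8sia1 stayed below 0.6 CPM per kb.

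The order changed in its lower part between groups. In R788 + anti-PDL1 tumors Gpc2 reached 3.39 ± 1.88 CPM per kb (SD, n = 3), clear of Dlk1 below it, and moved from above 12.7% to above 38.7% of the genes with a length. In irradiated tumors it was 0.0785 ± 0.0899 CPM per kb, above 1.7% of genes. Ncam1 reached 9.66 ± 2.43 CPM per kb in R788 + anti-PDL1 tumors, where its range met that of B4galnt1 at 11.6 ± 2.25. Cd276 was the highest of the 8 by its mean in every group, although in irradiated tumors its lowest value of 21.3 CPM per kb fell just under the highest B4galnt1 value of 21.5.

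St3gal5 (ENSMUSG00000056091.12, GRCm38 chromosome 6, 72097592 to 72154571, plus strand) was read in every tumor. It had 46.9, 27.4 and 32.1 CPM in vehicle, 39.1, 37.2 and 36.6 CPM in R788 + anti-PDL1, and 24.1, 31.2 and 28.8 CPM in irradiated replicates 1 to 3. Vehicle replicate 1 was the highest tumor of all, and the irradiated tumors all lay below the R788 + anti-PDL1 tumors. The log2 fold change was 0.09 ± 0.23 (SE) for R788 + anti-PDL1 against vehicle, -0.34 ± 0.23 for irradiated against vehicle and -0.42 ± 0.23 for irradiated against R788 + anti-PDL1, with adjusted p of 0.927, 0.492 and 0.332 (edgeR). Without irradiated replicate 1 the differences of the irradiated group were -0.21 against vehicle and -0.32 against R788 + anti-PDL1.

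St8sia1 (ENSMUSG00000030283.7, chromosome 6, 142821545 to 142964452, minus strand), the enzyme that commits GM3 to the GD3 and GD2 branch, was close to the detection floor outside a single group. Its counts were 3, 1 and 0 in vehicle, 13, 42 and 46 in R788 + anti-PDL1, and 0, 3 and 7 in irradiated tumors. All R788 + anti-PDL1 tumors were above all others, and replicate 1 of that group was the lowest of them. Pooled over libraries, 101 counts against 4 gave a ratio of 20.2 per normalized count, with an exact 95% counting interval of 7.66 to 75.6 that does not include the spread between tumors. The fitted log2 fold change was 4.18 ± 1.11 (SE, unadjusted p = 0.00399, adjusted p = 0.143, edgeR). Irradiated against vehicle, 10 counts against 4 gave a ratio of 2.66 with an interval of 0.766 to 11.6, which includes no difference, and the fitted log2 fold change was 1.22 ± 1.19, or 1.73 without irradiated replicate 1. Irradiated against R788 + anti-PDL1, the log2 fold change was -2.96 ± 1.0 (adjusted p = 0.223), and -2.48 without irradiated replicate 1. St8sia1 passed the filter on low counts only through the R788 + anti-PDL1 group, where all 3 libraries exceeded the limit of 0.49 CPM and no other library did, so that its presence among the tested genes already required a difference and its p-values are descriptions.

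B4galnt1 (ENSMUSG00000006731.10, chromosome 10, 127165225 to 127172330, plus strand) had 37.8, 31.4 and 31.4 CPM in vehicle, 24.7, 34.0 and 24.7 CPM in R788 + anti-PDL1, and 33.9, 48.8 and 51.4 CPM in irradiated tumors. Irradiated replicates 2 and 3 were the highest of the 9, and irradiated replicate 1 lay within the range of the other groups. The irradiated tumors differed from R788 + anti-PDL1 by a log2 fold change of 0.69 ± 0.23 (SE, unadjusted p = 0.0138, adjusted p = 0.223, edgeR), which was 0.85 without irradiated replicate 1 (adjusted p = 0.102). Against vehicle the values were 0.41 ± 0.23 (adjusted p = 0.425) and 0.61 without that replicate (adjusted p = 0.178). R788 + anti-PDL1 differed from vehicle by -0.27 ± 0.23 (adjusted p = 0.728). B4galnt1 shares 715 exonic bases with Slc26a10 on the opposite strand, which had 15 to 86 counts, and without knowledge of strandedness reads of such pairs cannot be told apart. The opposite-strand partners of St8sia1, Cd276 and Ncam1 (Gm7457, Gm10657 and Gm11149) had at most 1, 13 and 4 counts.

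The balance of the 3 enzymes can be read within each tumor as a ratio of levels per kb. St8sia1 reached at most 0.097% of the St3gal5 level in vehicle, 0.403% to 1.41% in R788 + anti-PDL1 and at most 0.305% in irradiated tumors. The step that feeds GD2 was thus the least abundant transcript of the chain in every tumor. B4galnt1 stood at 0.831, 1.19 and 1.01 times St3gal5 in vehicle, at 0.651, 0.943 and 0.696 times in R788 + anti-PDL1, and at 1.45, 1.61 and 1.84 times in irradiated tumors. The irradiated ratios were above all others, replicate 1 included. These ratios were formed after the values of both genes had been seen and carry no test.

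**Figure D2:**
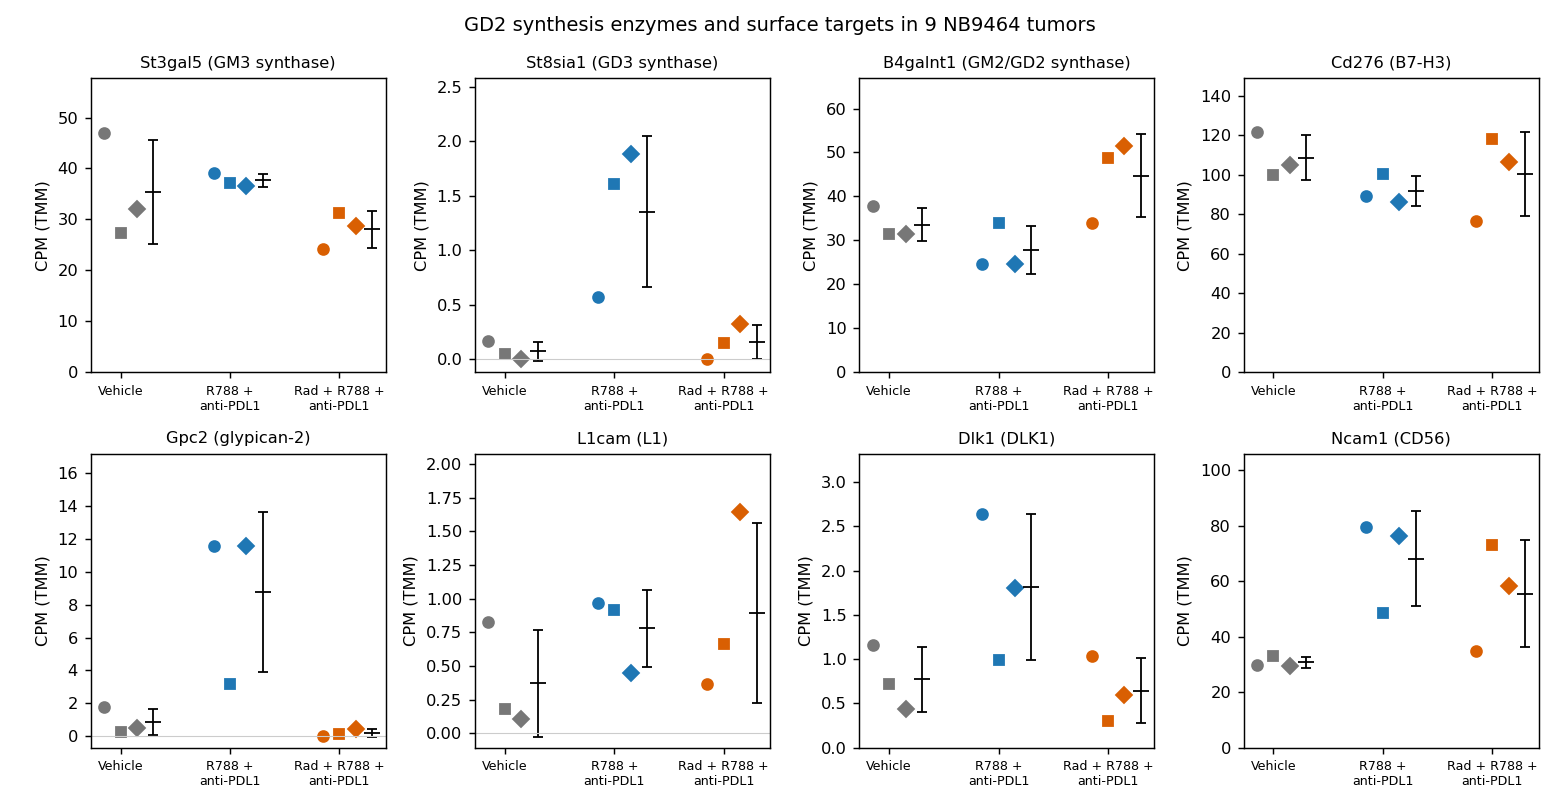
CPM of the 8 genes in each tumor, in 1 panel per gene with its own axis. Circles, squares and diamonds are replicates 1, 2 and 3, and the black bar is the mean ± SD (n = 3). In R788 + anti-PDL1 tumors St8sia1, Gpc2 and Ncam1 lay above every vehicle value, whereas Cd276 overlapped between all groups.

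The RNA start regions of St8sia1 and Gpc2, which stood apart in R788 + anti-PDL1 tumors, are shown beside that of Cd276, the most abundant member. They were chosen by these levels, and Ncam1, also above vehicle there, had no window. The GC box marked in them is not particular to them. Each line gives 250 bases before and 50 bases after the RefSeq start (GRCm38.p6), 5′ to 3′ on the gene's strand, with GC boxes (GGGCGG on either strand) in capitals. They lie at chr6:142964403-142964702 (minus), chr5:138279888-138280187 (minus) and chr9:58554984-58555283 (minus).
St8sia1: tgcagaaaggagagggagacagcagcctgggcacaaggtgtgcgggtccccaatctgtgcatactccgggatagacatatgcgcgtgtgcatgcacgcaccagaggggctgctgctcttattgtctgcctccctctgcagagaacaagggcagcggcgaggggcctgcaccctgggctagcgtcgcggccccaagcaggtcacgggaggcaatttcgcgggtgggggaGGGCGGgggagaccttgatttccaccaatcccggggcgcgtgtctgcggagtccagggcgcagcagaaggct
Gpc2: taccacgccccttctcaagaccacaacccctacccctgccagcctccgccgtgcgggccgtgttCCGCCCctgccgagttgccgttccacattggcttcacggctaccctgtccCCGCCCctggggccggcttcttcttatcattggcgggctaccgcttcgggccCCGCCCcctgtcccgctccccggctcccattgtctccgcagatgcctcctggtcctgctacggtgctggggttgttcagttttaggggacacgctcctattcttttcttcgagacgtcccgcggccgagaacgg
Cd276: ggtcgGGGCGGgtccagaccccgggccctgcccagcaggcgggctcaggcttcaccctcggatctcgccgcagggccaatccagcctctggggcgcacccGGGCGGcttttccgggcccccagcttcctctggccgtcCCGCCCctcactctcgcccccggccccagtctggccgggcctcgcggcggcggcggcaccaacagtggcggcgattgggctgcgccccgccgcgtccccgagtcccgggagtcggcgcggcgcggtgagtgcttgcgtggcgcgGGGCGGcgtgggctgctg

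A window was found for 6 of the 8 genes (St8sia1, St3gal5, Cd276, Gpc2, L1cam and Dlk1). The GC box occurred once in St8sia1, 2 times in St3gal5, 3 times in Gpc2 and 4 times in Cd276, 1 and 2 times in 2 overlapping L1cam windows, and was not found in Dlk1. It was present in 35.7% of all 32851 windows. The E-box CACGTG, the best known recognition letters of MYC proteins, was found in none of these windows and in 7.15% of all windows, and TATAAA was found in none and in 13.6% of all. The GC content was 64.7% for St8sia1, 65.7% for Gpc2, 72.7% for St3gal5, 78.3% for Cd276 and 55.7% for Dlk1, against a median of 52.7%. A match here is a match of letters only.

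Cd276 (ENSMUSG00000035914.11, chromosome 9, 58524298 to 58555437, minus strand) had 122, 99.7 and 105 CPM in vehicle, 89.1, 100.3 and 86.1 CPM in R788 + anti-PDL1, and 76.7, 118 and 106 CPM in irradiated tumors. Irradiated replicate 1 was the lowest tumor and vehicle replicate 1 the highest, and all groups overlapped. The log2 fold changes of R788 + anti-PDL1 against vehicle, irradiated against vehicle and irradiated against R788 + anti-PDL1 were -0.24 ± 0.20, -0.11 ± 0.20 and 0.13 ± 0.20 (SE), with adjusted p of 0.723, 0.79 and 0.741 (edgeR). Without irradiated replicate 1 the values of the irradiated group were 0.07 and 0.30, so the sign against vehicle depended on that tumor. These SEs do not exclude modest differences in either direction.

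Gpc2 (ENSMUSG00000029510.15, chromosome 5, 138273655 to 138280005, minus strand) had the largest fitted difference between any pair of groups among the 8 genes. It had 32, 6 and 9 counts in vehicle, 262, 83 and 283 counts in R788 + anti-PDL1, and 0, 3 and 10 counts in irradiated tumors, or 1.77, 0.269 and 0.493, then 11.6, 3.17 and 11.6, then 0, 0.152 and 0.457 CPM. Every R788 + anti-PDL1 tumor was above all others, with replicate 2 lower than its 2 companions, and the irradiated and vehicle ranges overlapped. R788 + anti-PDL1 exceeded vehicle by a log2 fold change of 3.38 ± 0.93 (SE, unadjusted p = 0.00511, adjusted p = 0.161, edgeR). Irradiated tumors were below R788 + anti-PDL1 tumors by -5.28 ± 1.06 (unadjusted p = 0.000632, adjusted p = 0.135), and by -4.79 without irradiated replicate 1 (adjusted p = 0.102). Pooled over libraries, 628 against 13 counts gave a ratio of 36.4 with an exact 95% counting interval of 21.1 to 68.7. This interval does not include the spread between tumors. Irradiated against vehicle the log2 fold change was -1.90 ± 1.01 (adjusted p = 0.417), -1.39 without irradiated replicate 1 and -0.75 without vehicle replicate 1. Gpc2 passed the filter on low counts through the same group, with 3 libraries over 0.49 CPM there and 1 in each other group, so its presence among the tested genes also rested on the group where it was high, and its p-values are given as descriptions. Gpc2 shares 2376 exonic bases on its own strand with the gene model Gm43720, which held 12 and 26 counts in R788 + anti-PDL1 replicates 1 and 3 and 0 elsewhere. With those counts added, a choice made after seeing the data, the log2 fold change against vehicle was 3.47 (adjusted p = 0.155).

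Ncam1 (ENSMUSG00000039542.16, chromosome 9, 49502136 to 49798925, minus strand) had 29.7, 33.1 and 29.3 CPM in vehicle, 79.6, 48.4 and 76.3 CPM in R788 + anti-PDL1, and 34.9, 73.0 and 58.4 CPM in irradiated tumors. All 6 treated tumors lay above the 3 vehicle tumors, which were close together, and irradiated replicate 1 lay just above them. R788 + anti-PDL1 exceeded vehicle by a log2 fold change of 1.15 ± 0.29 (SE, unadjusted p = 0.00319, adjusted p = 0.129, edgeR). Irradiated tumors exceeded vehicle by 0.85 ± 0.29 (unadjusted p = 0.0162, adjusted p = 0.304), and by 1.12 without irradiated replicate 1 (adjusted p = 0.07). The treated groups differed from each other by -0.30 ± 0.29 (adjusted p = 0.576), and by -0.04 without that replicate. Ncam1 per kb was 0.125 to 0.17 times Cd276 in vehicle, 0.247 to 0.456 times in R788 + anti-PDL1 and 0.232 to 0.315 times in irradiated tumors.

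Dlk1 (ENSMUSG00000040856.17, chromosome 12, 109452823 to 109463336, plus strand) was low throughout. Its counts were 21, 16 and 8 in vehicle, 60, 26 and 44 in R788 + anti-PDL1, and 14, 6 and 13 in irradiated tumors. R788 + anti-PDL1 replicates 1 and 3 were the highest of the 9 in CPM (2.65 and 1.80), and replicate 2 at 0.994 CPM lay within the other groups. The log2 fold change was 1.23 ± 0.63 (SE) against vehicle (adjusted p = 0.514), and irradiated tumors differed from R788 + anti-PDL1 by -1.51 ± 0.64 (unadjusted p = 0.0411, adjusted p = 0.259, edgeR) or by -1.98 without irradiated replicate 1. Irradiated against vehicle the value was -0.28 ± 0.64 (adjusted p = 0.839), with -0.74 without irradiated replicate 1, and it changed sign to 0.13 without vehicle replicate 1 and to 0.05 without irradiated replicate 2.

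L1cam (ENSMUSG00000031391.18, chromosome X, 73853778 to 73896105, minus strand) had 15, 4 and 2 counts in vehicle, 22, 24 and 11 in R788 + anti-PDL1, and 5, 13 and 36 in irradiated tumors. Irradiated replicate 3 was the highest and vehicle replicates 2 and 3 the lowest, and all groups overlapped. The log2 fold changes were 1.07 ± 0.85 and 1.28 ± 0.85 (SE) against vehicle for R788 + anti-PDL1 and irradiated tumors, and 0.21 ± 0.81 between these, with adjusted p of 0.713, 0.488 and 0.901 (edgeR). Without irradiated replicate 1 the irradiated values were 1.66 against vehicle and 0.58 against R788 + anti-PDL1. Single tumors set these values: without vehicle replicate 1 the differences against vehicle were 2.39 (unadjusted p = 0.0277, adjusted p = 0.391) and 2.59 (unadjusted p = 0.0201, adjusted p = 0.309), and without irradiated replicate 3 the second was 0.48 and the difference between the treated groups was -0.58. L1cam had 2 to 36 counts per library. L1cam shares 100 exonic bases on its strand with Arhgap4, which had 32 to 270 counts.

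**Figure D3:**
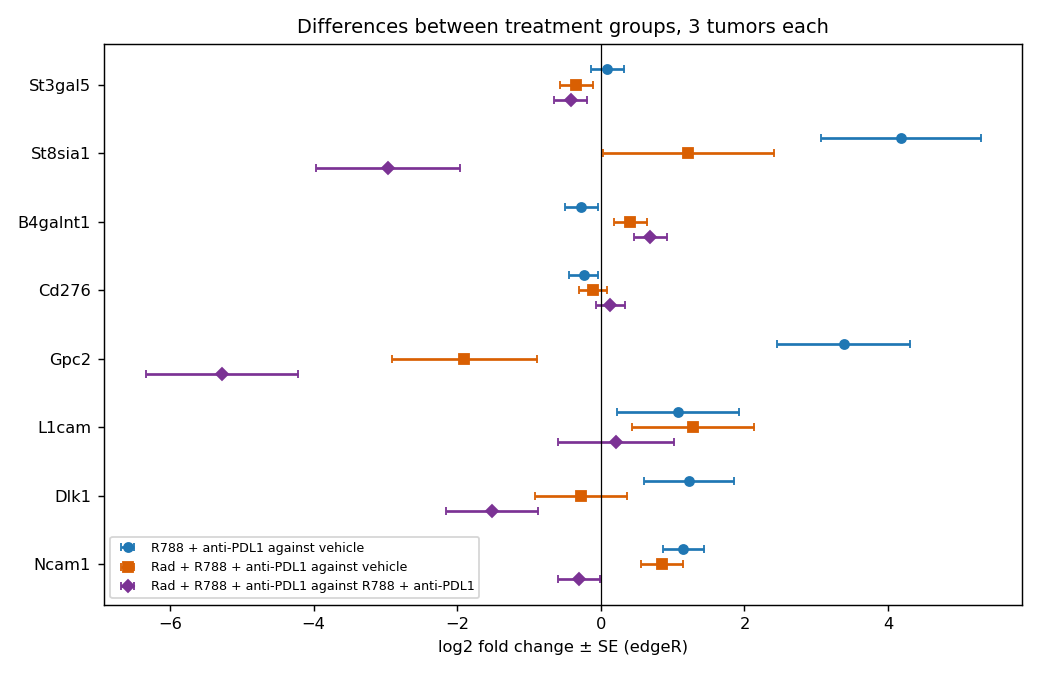
Log2 fold change ± SE (edgeR, 3 tumors per group) of the 8 genes in each of the 3 comparisons. For Gpc2 and St8sia1 the R788 + anti-PDL1 point lies at 3.38 and 4.18 against vehicle, and the irradiated points lie at -5.28 and -2.96 against R788 + anti-PDL1.

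Across the 8 genes, 0 passed the adjusted threshold of 0.05 in any comparison by edgeR. In R788 + anti-PDL1 against vehicle, St8sia1, Gpc2 and Ncam1 had an unadjusted p under 0.05, where 0.678% of 15931 tested genes were called and 11.7% had an unadjusted p that low. They were also higher without overlap between groups, as were 13.6% of all genes, and 30.1% of all genes did not overlap in either direction. Since St8sia1 and Gpc2 were tested only because this group was high, nothing is read from their number against these shares, and of the 3 only Ncam1 passed the filter in every group. In irradiated tumors against vehicle, 1 gene (Ncam1) had an unadjusted p under 0.05 and did not overlap, against 0.0439% called, 13.2% at that unadjusted p, 20.5% not overlapping and 9.27% higher without overlap among all genes. In irradiated against R788 + anti-PDL1 tumors, 4 had an unadjusted p under 0.05 (B4galnt1, St8sia1, Gpc2 and Dlk1), and 3 were lower without overlap (St8sia1, Gpc2 and St3gal5), with the same limit for St8sia1 and Gpc2. Among all genes 0.00628% were called, 18.4% had an unadjusted p under 0.05 and 13.2% were lower without overlap in that comparison. As a description, the median log2 fold change of the 8 genes was 1.11, 0.15 and -0.36 in this order, against -0.02, 0.05 and 0.04 over all genes tested. These medians include St8sia1 and Gpc2, with the same limit, so nothing is read from them against all genes. The 3 comparisons share groups, so a high value in R788 + anti-PDL1 tumors enters 2 of them.

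The calls depended on the model and on the libraries and genes it was fitted to. DESeq2, the tool named in the study's methods, called St8sia1 (adjusted p = 0.00947), Gpc2 (0.00133) and Ncam1 (0.0119) in R788 + anti-PDL1 against vehicle and Gpc2 (1.06e-06) in irradiated against R788 + anti-PDL1 tumors. It called 0 of the 8 in irradiated against vehicle. An edgeR fit of only the 6 libraries compared called St8sia1 (adjusted p = 0.0486) and Ncam1 (0.0254) against vehicle and left Gpc2 at 0.0544. St8sia1 and Gpc2 passed the edgeR filter on low counts through the R788 + anti-PDL1 group. Their p-values in these fits come from the same counts and are descriptions too. DESeq2 called 726 of 18065 genes in R788 + anti-PDL1 against vehicle, 554 of 17550 in irradiated against vehicle and 644 of 16005 between the treated groups. The edgeR fit of all libraries called 108, 7 and 1 of 15931. The fit of 6 libraries called 594 of 15467 in the first comparison, so the members' calls came with many others. Limma-voom called 0 of the 8 in each comparison, with 3, 1 and 4 at an unadjusted p under 0.05. Of all 15931 genes it called 111, 12 and 8, with 1947, 1918 and 2696 at that unadjusted p.

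The rest of the ganglioside pathway was examined to see whether the enzymes around GD2 changed. Of 31 further genes, 25 had enough counts to test, and edgeR called 0 in each comparison, with 1, 1 and 2 at an unadjusted p under 0.05, all higher. Groups did not overlap for 24%, 12% and 16% of the 25, against 30.1%, 20.5% and 27.4% of all genes. The 3 glycolipid precursor enzymes (Ugcg, which makes glucosylceramide, and B4galt5 and B4galt6, which make lactosylceramide) had a median log2 fold change of -0.41 in R788 + anti-PDL1 against vehicle. B4galt5, the highest of them per kb, had -0.53 ± 0.34 (SE, adjusted p = 0.63).

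Of the genes that supply sialic acid, Nans, which makes its backbone, was highest per kb, with 103 CPM on average. Cmas activates sialic acid to its CMP form. Cmas had 68.0, 53.1 and 56.8 CPM in vehicle, 43.1, 52.6 and 43.2 CPM in R788 + anti-PDL1, and 118, 61.5 and 60.8 CPM in irradiated tumors. Irradiated replicate 1 was far above all others, and the irradiated tumors did not overlap with R788 + anti-PDL1. That difference was 0.79 ± 0.27 on the log2 scale (unadjusted p = 0.0177, adjusted p = 0.226, edgeR) and 0.41 without irradiated replicate 1. Slc35a1, the transporter that carries CMP-sialic acid into the Golgi, was the other gene at an unadjusted p under 0.05 in that comparison, with 0.53 ± 0.22 (adjusted p = 0.252) and 0.37 without that replicate. It is named because the count is small and was chosen after its values were seen.

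The only pathway gene at an unadjusted p under 0.05 against vehicle was St3gal1, a sialyltransferase whose main substrates are O-glycans, also named after its values were seen. It had 11, 15.5 and 13.0 CPM in vehicle, 54.7, 14.5 and 44.4 CPM in R788 + anti-PDL1, and 12.8, 36.3 and 50.3 CPM in irradiated tumors. R788 + anti-PDL1 replicate 2 and irradiated replicate 1 lay within the vehicle range, and the other 4 treated tumors lay well above it. The log2 fold changes against vehicle were 1.52 ± 0.55 (adjusted p = 0.308) and 1.33 ± 0.55 (adjusted p = 0.355, edgeR), the latter 1.75 without irradiated replicate 1. Genes of the branches that compete with or extend GD2 were led per kb by St6galnac6, at 21.0 CPM per kb on average, and those of breakdown by Psap, the precursor of the saposins, at 330 CPM per kb. St8sia3, St8sia5, St6galnac5, B3gnt5, Neu2 and Neu4 had too few counts to test. St8sia3, a related sialyltransferase, had 3 counts in R788 + anti-PDL1 replicate 1 and 0 elsewhere, and St8sia5 had 1 count in irradiated replicate 3 and 0 elsewhere.

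**Figure D4:**
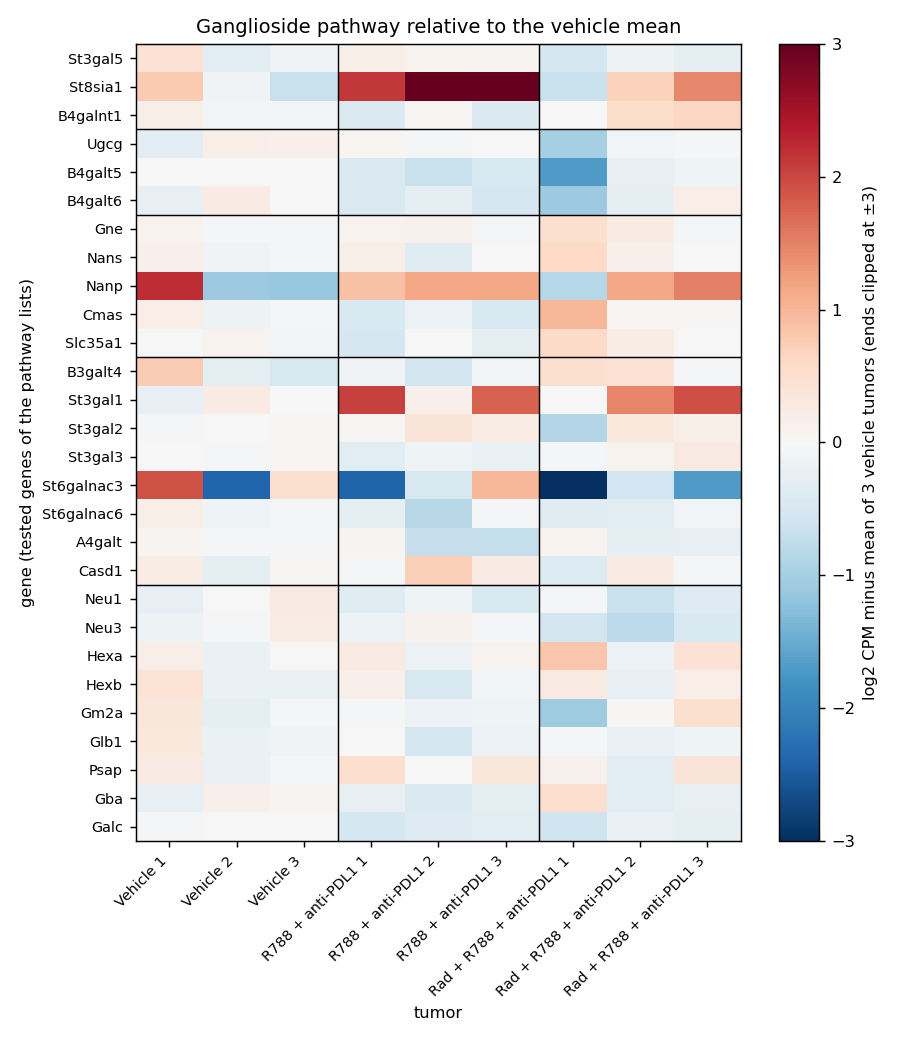
Log2 CPM of the 28 tested ganglioside genes (rows, the 3 GD2 enzymes on top, then precursor enzymes, sialic acid supply, competing or later enzymes and breakdown) in the 9 tumors (columns), minus the mean of the vehicle tumors. Colours are clipped at ±3. St8sia1 stands out in the R788 + anti-PDL1 columns, and St3gal1 in 4 of the 6 treated tumors.

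Polysialic acid, the long sialic acid chain carried by NCAM, is made by St8sia2 and St8sia4. St8sia2 had 3 counts in R788 + anti-PDL1 replicate 1 and 0 in the other 8 tumors. St8sia4 had 1.71, 1.21 and 1.81 CPM in vehicle, 3.18, 4.55 and 3.65 CPM in R788 + anti-PDL1, and 0.295, 1.88 and 7.31 CPM in irradiated tumors. Its R788 + anti-PDL1 tumors were above the vehicle tumors, and the irradiated tumors spread over both. The log2 fold change against vehicle was 1.26 ± 0.83 (SE, adjusted p = 0.637, edgeR) for R788 + anti-PDL1. The enzyme is also present in immune cells, and its part by cell type was not tested.

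The other glypicans differed from Gpc2 in level, in the size of their differences or in direction. Gpc1, the most abundant, had 300, 352 and 346 CPM in vehicle, 192, 214 and 208 CPM in R788 + anti-PDL1, and 204, 269 and 254 CPM in irradiated tumors. All 6 treated tumors were below the vehicle tumors, with log2 fold changes of -0.70 ± 0.18 (unadjusted p = 0.00322, adjusted p = 0.129, edgeR) and -0.46 ± 0.18 (adjusted p = 0.341), the latter -0.32 without irradiated replicate 1. Gpc4 had 21.1, 22.5 and 22.9 CPM in vehicle, 34.0, 47.2 and 38.5 CPM in R788 + anti-PDL1, and 35.3, 46.2 and 41.9 CPM in irradiated tumors. It lay above vehicle in all 6 treated tumors, by 0.85 ± 0.20 (adjusted p = 0.0982) and 0.89 ± 0.20 (adjusted p = 0.152). Without irradiated replicate 1 the latter was 1.02 and passed the threshold (adjusted p = 0.0465). Gpc4 differed between the treated groups by 0.04 ± 0.19 and Gpc1 by 0.24 ± 0.18, where Gpc2 differed by -5.28 ± 1.06. Gpc6, named after its values were seen, had 16.2, 17.9 and 16.6 CPM in vehicle, 28.4, 29.9 and 28.8 CPM in R788 + anti-PDL1, and 6.27, 22.2 and 21.0 CPM in irradiated tumors. Like Gpc2 it was highest in the 3 R788 + anti-PDL1 tumors, with a log2 fold change of 0.78 ± 0.39 against vehicle (adjusted p = 0.502), and irradiated tumors differed from that group by -0.81 ± 0.39 (adjusted p = 0.288) or -0.42 without irradiated replicate 1. Gpc5 was at 0 in all 9 tumors.

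**Figure D5:**
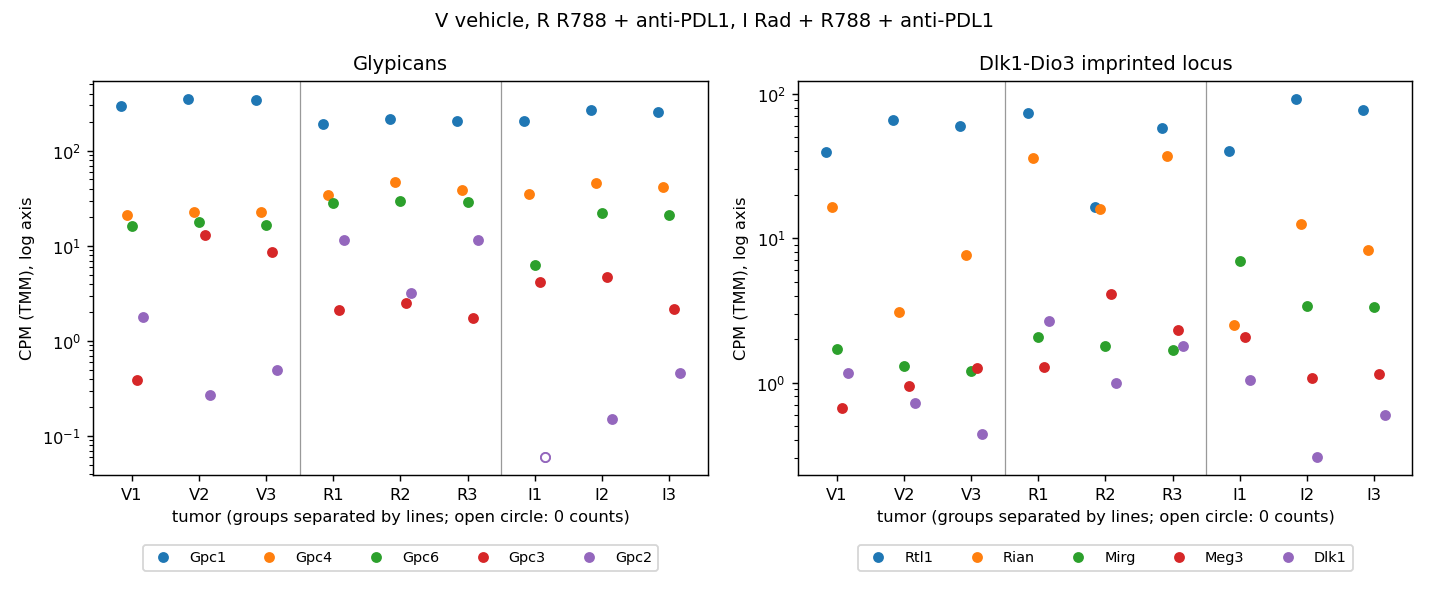
CPM (log axis) in each tumor of the tested glypicans (left) and of the tested genes of the Dlk1-Dio3 imprinted locus (right), with groups divided by vertical lines and an open circle for 0 counts. Gpc2 runs from 0 to 11.6 CPM while Gpc1 stays between 192 and 352 CPM, and Dlk1 stays at or under 2.65 CPM.

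At the Dlk1-Dio3 imprinted locus, where Dlk1 and Rtl1 come from the paternal and the noncoding Meg3, Rian and Mirg from the maternal chromosome, Rtl1 was the highest gene per kb (57.9 CPM on average) and Dio3 had too few counts to test. Meg3 had 0.663, 0.943 and 1.26 CPM in vehicle, against 1.28, 4.09 and 2.30 CPM in R788 + anti-PDL1. The groups came close without overlapping, and the log2 fold change was 1.41 ± 0.55 (adjusted p = 0.354, edgeR). Rian had 16.3, 3.10 and 7.67 CPM in vehicle, 36.0, 15.9 and 36.8 CPM in R788 + anti-PDL1, and 2.51, 12.6 and 8.27 CPM in irradiated tumors. Its replicates 1 and 3 of R788 + anti-PDL1 were the highest of the 9, as they were for Dlk1, and irradiated tumors were lower than R788 + anti-PDL1 by -1.92 ± 0.68 (unadjusted p = 0.0197, adjusted p = 0.229), or by -1.50 without irradiated replicate 1. Mirg went another way, with 1.71, 1.30 and 1.21 CPM in vehicle, 2.07, 1.80 and 1.68 CPM in R788 + anti-PDL1, and 6.93, 3.40 and 3.33 CPM in irradiated tumors. The irradiated tumors were above all others for Mirg, by 1.69 ± 0.43 against vehicle (unadjusted p = 0.00288, adjusted p = 0.206) and 1.29 ± 0.42 against R788 + anti-PDL1 (adjusted p = 0.223), and by 1.28 and 0.87 without irradiated replicate 1.

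Of the families and other surface targets together, 27 of 38 further genes were tested and edgeR called 0 in each comparison. At an unadjusted p under 0.05, 6 were higher and 1 lower in R788 + anti-PDL1 against vehicle, 3 higher and 1 lower in irradiated against vehicle, and 1 higher and 3 lower between the treated groups, where 11.7%, 13.2% and 18.4% of all genes had such a p in either direction. Groups did not overlap for 29.6%, 14.8% and 22.2% of the 27, against 30.1%, 20.5% and 27.4% of all genes. The smallest adjusted p was 0.0761, for Ror1, a receptor tyrosine kinase-like molecule targeted by antibodies and engineered T cells. Ror1 had 6.35, 6.42 and 5.65 CPM in vehicle, 19.3, 24.5 and 20.0 CPM in R788 + anti-PDL1, and 4.57, 12.4 and 12.7 CPM in irradiated tumors. The R788 + anti-PDL1 tumors were above all others by a wide gap, and irradiated replicate 1 was the lowest tumor. The log2 fold change was 1.79 ± 0.37 against vehicle, and irradiated tumors differed from R788 + anti-PDL1 by -1.10 ± 0.36 (adjusted p = 0.223), or -0.76 without irradiated replicate 1.

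Epha2, an ephrin receptor, had 1.64 to 2.07 CPM in vehicle, 2.95 to 3.53 CPM in R788 + anti-PDL1 and 2.88 to 4.8 CPM in irradiated tumors. Both treated groups were above vehicle without overlap, by 0.81 ± 0.35 (adjusted p = 0.414) and 1.10 ± 0.35 (adjusted p = 0.28, edgeR), the latter 1.31 without irradiated replicate 1. Igf1r, the receptor of insulin-like growth factors, had 37.4 to 42.6 CPM in R788 + anti-PDL1 and 17.8 to 29.5 CPM in irradiated tumors, which differed by -0.67 ± 0.28 (adjusted p = 0.261), or -0.46 without irradiated replicate 1. Cd24a, a small glycolipid-anchored glycoprotein, was the highest of these targets per kb, at 81.9 CPM on average, and its groups overlapped in both comparisons against vehicle. Alk, a receptor kinase mutated in part of human neuroblastomas, did not exceed 1 count in any tumor.

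Among families with a member, Cd276 was the highest B7 gene and Ncam1 and L1cam the highest of theirs per kb. Pdcd1lg2 and Vtcn1 of the B7 family, Chl1 and Nfasc of the L1 family, and Dll3 of the other targets had too few counts to test. Dll3 had 14, 5 and 8 counts in vehicle and at most 14 elsewhere. Ncam2 was at 0 in all 9 tumors. Cd274, whose product is bound by the antibody given, had a log2 fold change of -0.16 ± 0.62 (SE, adjusted p = 0.953, edgeR) in R788 + anti-PDL1 against vehicle.

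The tumors also differed in markers of other cell types, and in whole tumors fewer cells of a type and less RNA per cell cannot be told apart. The summed level of 10 macrophage genes was 321 to 681 CPM in vehicle, 711 to 725 CPM in R788 + anti-PDL1 and 359 to 1925 CPM in irradiated tumors. That of 8 T cell genes was 3.50 to 8.94, 15.3 to 29.8 and 6.05 to 43.2 CPM, and that of 8 fibroblast genes was 3023 to 3755, 2924 to 5394 and 2533 to 4944 CPM. The R788 + anti-PDL1 tumors were above the vehicle tumors in the macrophage and T cell sums, as they were in St8sia1, Gpc2 and Ncam1. Gene by gene the separation was weaker. Of the 10 macrophage genes, 3 were higher without overlap and 0 had an unadjusted p under 0.05 (edgeR). Of the 4 T cell genes tested, 0 were without overlap and 1 had such a p. Among all genes 13.6% were higher without overlap and 11.7% had such a p. The T cell sum came mostly from Cd4, which macrophages can also express, and Lck, whereas the defining markers Cd3d, Cd3e, Cd3g and Cd2 were too low to test. Cd3e had 3 to 5 counts in vehicle and 1 to 5 counts in R788 + anti-PDL1 tumors, and 2, 3 and 54 counts in irradiated replicates 1 to 3. Irradiated replicate 3 alone set the upper ends of its group in the macrophage and T cell sums. Irradiated replicates 1 and 2 had 558 and 359 CPM in the macrophage sum and 6.05 and 11.4 CPM in the T cell sum. Endothelial genes summed to 48.4 to 55.6, 54.6 to 145 and 75.9 to 89.6 CPM. Schwann cell genes summed to 115 to 194, 78.4 to 95.4 and 110 to 136 CPM, lower in every R788 + anti-PDL1 tumor than in any other tumor. Most of that sum was Pmp22, which many cell types express, with 105 to 174, 59.4 to 80.5 and 104 to 122 CPM, while the defining marker Sox10 did not exceed 4 counts and Foxd3 was at 0 throughout. Keratinocyte genes summed to 9.11 to 9.43, 2.95 to 66.2 and 48.3 to 76.0 CPM, adipocyte genes to 111 to 159, 145 to 227 and 92.5 to 138 CPM, and skeletal muscle genes to 11.1 to 11.4, 8.65 to 11.5 and 10.3 to 29.8 CPM. Nearly all of the irradiated keratinocyte sum was Krt5 (75.0, 54.1 and 46.5 CPM). Krt14 went the other way, with 4, 41 and 43 counts in vehicle and at most 2 in any treated tumor. Most of the adipocyte sum was Lpl, while Adipoq did not exceed 3 counts and Lep 1. Replicate 2 of R788 + anti-PDL1, the lowest of its group in Gpc2, Ncam1 and Dlk1, was the highest of it in the fibroblast, endothelial and keratinocyte sums. Among the other members it was the highest of its group in B4galnt1 and Cd276. It lay between its companions in St8sia1, St3gal5 and L1cam. The same tumor was also the highest of its group in the Schwann cell, skeletal muscle and noradrenergic neuroblast sums, the last mostly Hand2. It was the lowest of its group in the T cell and adipocyte sums and lay between its companions in the macrophage sum. The part of these cell types in the members' levels was not tested.

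The members did not move as a single block over the 9 tumors. On log2 CPM, Gpc2 had a Pearson r of 0.82 with St8sia1, 0.77 with St3gal5 and 0.74 with Dlk1, whereas B4galnt1 had -0.74 with Dlk1, -0.61 with Gpc2 and 0.62 with Cd276. Cd276 had -0.09 with Gpc2 and -0.16 with Ncam1. These are descriptions over 9 tumors that share group structure and, for irradiated replicate 1, an unusual library. Among 9611 tested genes of at least 10 CPM on average, the patterns most like those of the members were Kitl (r = 0.954), Thsd4 and Adam12 for St8sia1, and Csnk1g3 (0.972), Foxp1 and Spin1 for Gpc2. They were Dyrk2 (0.962), Flrt2 and Clcn2 for Ncam1, Rap2b (0.947), B4galt1 and Nipsnap2 for B4galnt1, and Rai14 (0.965), Eefsec and Clstn3 for St3gal5. For Cd276 they were Txndc5 (0.971), Pacsin2 and Cux1, for Dlk1 Mterf3 (0.928), Ercc8 and Eml2, and for L1cam Sh3kbp1 (0.918), Mfsd6 and Fmnl1. Flrt2, an adhesion molecule, had group means of 5.95, 27.5 and 12.9 CPM and Kitl, the ligand of the receptor Kit, 5.51, 21.4 and 9.15 CPM in vehicle, R788 + anti-PDL1 and irradiated tumors.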

How the data were processed

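Per the labels, RNA was poly(A)-selected and sequenced as paired-end reads, whereas the study's methods name single reads. According to these methods the authors aligned to mm10 with STAR and quantified with Salmon in bcbio. The submitters' processing notes list STAR 2.6.1d and Salmon 1.4.0. The deposited values were estimated counts per symbol, as whole numbers without normalization. Strandedness was not given in the sources used here, so reads of overlapping genes could not be separated. Identifiers, coordinates and merged exon lengths came from GENCODE M21 (GRCm38), and promoter windows from RefSeq (GRCm38.p6).

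Groups came from the treatment labels. Genes passing filterByExpr (minimum count 10, leaving 15931) were fitted over all 9 libraries in edgeR 4.0.16 (R 4.3.3) with TMM and the robust quasi-likelihood F test, two-sided, with Benjamini-Hochberg adjustment over all genes and a threshold of 0.05. The fit was tested on simulated data. Alternatives were DESeq2 1.42.0, limma 3.58.1 voom with and without quality weights, other normalizations and filters, a replicate block, the 6 libraries compared alone and each replicate left out. Log2 CPM used a prior count of 2. Each SE of a log2 fold change was derived from the edgeR fit, as its absolute size divided by the square root of F. For genes near 0 counts this SE is approximate. P-values of this fit set a difference between groups against the spread between tumors, estimated over all 9 libraries. The genes and lists were chosen with earlier results of these data known. Named from the lists were genes without group overlap at an unadjusted p under 0.05, the highest gene per kb of each list, and genes too low to test. Some genes of the lists are not reported here.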

Additional observations from a re-analysis of the deposited data

How the results depend on the processing

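The number of genes called depended strongly on the fit, and so did the number tested, which was 15931 by edgeR, 16005 to 18065 by DESeq2, 27965 with no low-count filter, 14999 to 15581 with 6 libraries and 16311 to 16688 with a replicate left out. In R788 + anti-PDL1 against vehicle it was 108 by edgeR, 726 by DESeq2, 4835 by limma-voom with quality weights, 199 with no low-count filter, 594 with only the 6 libraries compared, and 0 to 75 with a replicate left out. In irradiated against vehicle it was 7, and 554, 1993, 70, 1 and 1 to 57 in the same order, with 12 by limma-voom. In irradiated against R788 + anti-PDL1 it was 1, and 644, 3080, 24, 0 and 0 to 21, with 8 by limma-voom. Of the 8 members, quality weights called 6, 3 and 5 in these comparisons, DESeq2 called 3, 0 and 1, and the fit of 6 libraries called 2 in the first. Calls of St8sia1 or Gpc2 are among them, with the limit stated for these genes. Leaving out any replicate called 0.

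Of 349 values of a member's log2 fold change under an alternative, 321 kept their direction and their side of the threshold, 20 gained a call (14 by quality weights, 4 by DESeq2 and 2 with 6 libraries) and 8 changed direction, all of them uncalled. Against vehicle, St3gal5 in R788 + anti-PDL1 tumors ranged from -0.07 (without vehicle replicate 2) to 0.36 over the left-out replicates. In irradiated against vehicle, Cd276 ranged from -0.25 to 0.07 (without irradiated replicate 1) and was 0.09 with quality weights, and Dlk1 ranged from -0.74 to 0.13 (without vehicle replicate 1), with 0.05 without irradiated replicate 2. In irradiated against R788 + anti-PDL1, Cd276 ranged from -0.01 (without irradiated replicate 2) to 0.30, and L1cam from -0.58 (without irradiated replicate 3) to 0.58, with -0.07 without R788 + anti-PDL1 replicate 3. The cause of these changes was not tested.

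With the replicate number as a block, edgeR called 0, 3 and 0 genes in the 3 comparisons and 0 members. Samples with the same number deviated from their group means with correlations from -0.0463 to 0.233, and not every pair exceeded 0.1, so the numbers were not treated as a pairing. A minimum of 10 counts in every library kept only 4 members (B4galnt1, St3gal5, Cd276 and Ncam1), and the 6 libraries of irradiated against vehicle tested only 6. St8sia1, L1cam and Dlk1 were limited by depth, at 46, 36 and 60 counts or fewer per library.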
